A study of Mus musculus with 12 samples.

Results

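The level of Slc17a6, the gene of the vesicular glutamate transporter VGLUT2, varied widely among 12 mouse hippocampus arrays, and the 4 arrays with most of it were set against the 4 with least. The high set held EtOH 1, EtOH 2, EtOH 6 and Control 1, and the low set held EtOH 4, EtOH 5, Control 2 and Control 3. The arrays were chosen by their measured level of 1 Slc17a6 probe, and EtOH 3, Control 4, Control 5 and Control 6 lay between the sets and were left out. In all, 8 of the 12 arrays entered the comparison, which asked which other transcripts were higher or lower along with Slc17a6. The sets were formed from a measured level and are no treatment, so each test below is of association with that level among these arrays.

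The tissue was hippocampus of C57BL/6J females aged 12 weeks, with 6 ethanol-exposed animals (EtOH) and 6 controls (Control), and total RNA was measured on single-colour Illumina bead arrays. The exposure was ethanol at 10% by volume, drunk by choice by the dam from 0.5 to 8.5 days after mating. The labels repeat that treatment text on every sample and name no control drink. They name no litters either, so p-values measure only the spread between these arrays. The high set held 3 EtOH and 1 Control array, and the low set 2 of each. On the first of the 2 chips lay 3 high and 2 low arrays, and on the second 1 high and 2 low arrays.

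Glutamatergic neurons load their synaptic vesicles through 1 of a family of transporters. VGLUT1, from Slc17a7, is the main form in hippocampal pyramidal and dentate granule cells, VGLUT2 is the main form in thalamus and many other subcortical regions, and VGLUT3, from Slc17a8, occurs in scattered neurons of other kinds. A dissected hippocampus borders on subiculum, retrosplenial and other neocortex, thalamus and habenula, all of which hold glutamatergic neurons of their own. Tbr1, a T-box transcription factor, and Cux2, a homeobox factor of the upper layers, mark cortical projection neurons. Lamp5 encodes a membrane protein of some cortical neurons. In whole tissue, more cells of a kind and more RNA per cell cannot be told apart.

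All levels are log2 intensities after background correction and quantile normalization. The Slc17a6 probe read 11.73 in EtOH 1, 11.63 in EtOH 2, 11.34 in EtOH 6 and 11.27 in Control 1. In the low set it read 10.54 in Control 3, 10.23 in EtOH 5, 10.07 in EtOH 4 and 9.39 in Control 2. The set means were 11.49 ± 0.22 (SD, n = 4) and 10.06 ± 0.49 (SD, n = 4), given as a description because these values chose the arrays. Just outside the high set stood Control 6 at 11.05, close under Control 1, and just outside the low set stood EtOH 3 at 10.66, close above Control 3. The other 2 middle arrays were Control 4 at 10.79 and Control 5 at 10.74. Levels thus ran on without a clear gap at either limit, and the lowest array, Control 2, stood farthest from its neighbour. A second probe of Slc17a6 ranged from 11.06 to 11.56 in the high set and from 9.17 to 10.42 in the low set. By that probe the high set held the same arrays, while EtOH 3, at 10.41, would have replaced Control 3 in the low set.

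**Figure D1:**
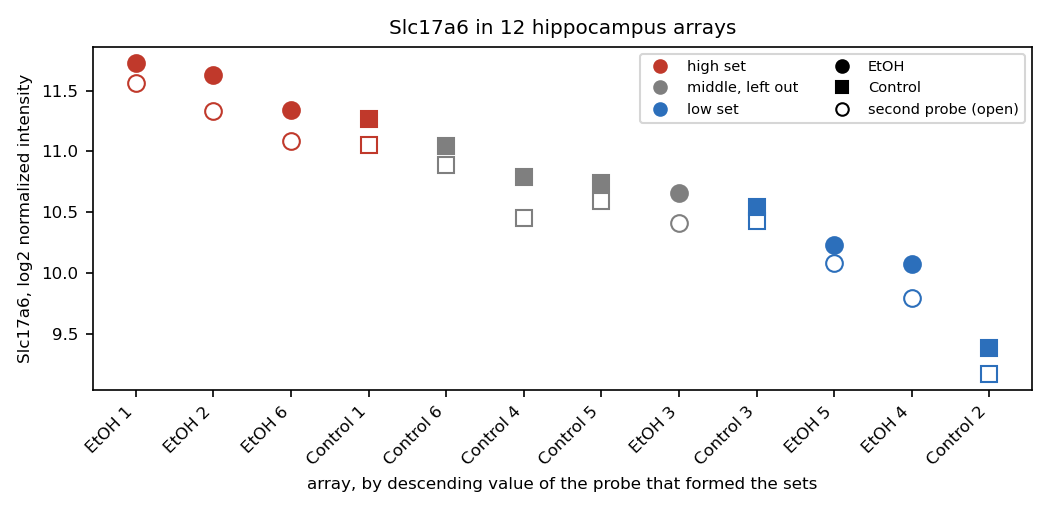
Log2 intensity of the Slc17a6 probe that formed the sets (filled) and of the second probe (open), by array in order of level, coloured by set and shaped by exposure group. By the filled points the 4 high arrays lie between 11.27 and 11.73, the 4 low arrays between 9.39 and 10.54, and the middle arrays lie close to both limits.

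Numbers of detected probes were similar in both sets. Between 19748 and 20858 probes were detected on an array, with 19748 to 20459 in the high set and 20324 to 20617 in the low set. Array pairs correlated at 0.983 to 0.994 over the tested probes, and no 2 arrays held identical values. Markers of hippocampal fields were present throughout, among them the dentate granule gene C1ql2, which lay between 12.05 and 12.84 on every array. Ttr, the main product of the choroid plexus of the ventricles, read 15.39 in EtOH 2 of the high set, 15.47 in EtOH 4 and 15.43 in Control 2 of the low set, and 15.39 in Control 4, a middle array. On the other 8 arrays Ttr lay between 7.92 and 11.57, so choroid plexus transcripts were abundant in 1 high and 2 low arrays.

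The comparison of the sets covered 20170 detected probes, with the chip as a term in the fit. No probe passed an adjusted p of 0.05 (limma, Benjamini-Hochberg). The lowest adjusted p was 0.0587, shared by 14 probes, and 251 probes, or 1.24% of those tested, were under 0.1, with 182 higher (0.902%) and 69 lower (0.342%) in the high set. At an unadjusted p under 0.05 stood 3332 probes, or 16.5%, with 1782 higher (8.83%) and 1550 lower (7.68%). The 2 sets did not overlap for 1853 probes (9.19%), of which 1151 (5.71%) lay wholly above and 702 (3.48%) wholly below. The 95% interval of a difference extended 0.23 log2 units to either side at the median probe with 4 arrays a set. That width matches an unadjusted p of 0.05, and even a difference of 2.06, that of Tshz2, did not pass after adjustment.

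Whether the call depends on cutting the arrays into sets was examined with all 12 arrays, by fitting each probe's slope on the Slc17a6 level with the chip as a term. This fit called 395 probes (1.96%) at an adjusted p under 0.05 in limma, 300 rising with Slc17a6 (1.49%) and 95 falling (0.471%), and the called probes named 226 rising and 74 falling genes. The count moved with single arrays: it was 125 without EtOH 1, 189 without EtOH 4, 215 without EtOH 5, 234 without EtOH 6, 100 without Control 2 and 252 without Control 3. Leaving out any of the other 6 arrays gave 283 to 390. Without the 2 arrays farthest from the median Slc17a6 level, Control 2 and EtOH 1, it was 138, of which 63 were among the 395. Without the 4 arrays with choroid plexus transcripts it was 11, on 8 arrays, and with the Ttr level as a covariate it was 529. On chip 1 alone 7 probes were called and on chip 2 alone 4. In the EtOH arrays alone 15 were called and in the Control arrays alone 5, while no probe's slope differed between the exposure groups at an adjusted p of 0.05 (limma interaction term, lowest 0.333, with 5.32% at an unadjusted p under 0.05). Below, "rose" and "fell" refer to this slope over 12 arrays, in log2 units per log2 unit of Slc17a6, and a difference between the sets is given as a value.

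The largest difference among the rule's genes belonged to Tshz2, a teashirt zinc-finger transcription factor used as a marker of retrosplenial cortex and subiculum. It read 9.59 in EtOH 1, 9.23 in EtOH 2, 9.52 in EtOH 6 and 9.18 in Control 1. In the low set it read 7.35 in EtOH 4, 7.53 in EtOH 5, 6.78 in Control 2 and 8.12 in Control 3. Every high array thus lay above every low array, and the middle arrays, at 8.32 to 8.93, fell between. The difference was 2.06 (95% interval 1.60 to 2.53, limma adjusted p = 0.0587), and it was 2.27 on chip 1, 1.69 on chip 2, where EtOH 6 is the only high array, and 1.94 with Ttr as a covariate. Tshz2 rose by 1.29 per unit of Slc17a6 (limma adjusted p = 4.11e-06), and its other probes rose by 1.15 and 1.03. The probes with slopes of 1.29 and 1.15 passed in each of the 23 alternative slope fits, among them each chip and each exposure group alone. The related factor Tshz3 lay between 9.89 and 10.57 in the high set and between 8.78 and 9.20 in the low set, a difference of 1.29 (0.91 to 1.67), and rose by 0.81 (limma adjusted p = 0.000617).

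Vwc2l, a secreted protein with von Willebrand factor C domains, had the lowest slope p of all probes. It read 9.12 in EtOH 1, 8.92 in EtOH 2, 8.81 in EtOH 6 and 8.61 in Control 1, against 7.26 in EtOH 4, 7.32 in EtOH 5, 6.22 in Control 2 and 7.69 in Control 3. The middle arrays stood at 8.00 to 8.38, between the sets, and no high array overlapped a low one. The set difference was 1.84 (1.24 to 2.45, limma adjusted p = 0.0683), and Vwc2l rose by 1.21 per unit of Slc17a6 (limma adjusted p = 3.62e-07), passing in each of the 23 alternative slope fits. A second, dimmer probe of Vwc2l differed by 0.24 and was not called.

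The promoters of Slc17a6, Tshz2 and Vwc2l are shown because Tshz2 and Vwc2l had the smallest slope p-values with Slc17a6. Each runs from 250 bases before to 50 bases after the RefSeq start, on the plus strand of GRCm38.p6, at chr7:51621580-51621879 for Slc17a6 (the most upstream of 2 listed starts), chr2:169632259-169632558 for Tshz2 and chr1:70725465-70725764 for Vwc2l. Capitals mark a match to GGTGTGA, the core of a T-box site, or to CAGATGG, an E-box of the kind bound by neurogenic basic helix-loop-helix factors, on either strand; the 2 motifs do not overlap.
Slc17a6: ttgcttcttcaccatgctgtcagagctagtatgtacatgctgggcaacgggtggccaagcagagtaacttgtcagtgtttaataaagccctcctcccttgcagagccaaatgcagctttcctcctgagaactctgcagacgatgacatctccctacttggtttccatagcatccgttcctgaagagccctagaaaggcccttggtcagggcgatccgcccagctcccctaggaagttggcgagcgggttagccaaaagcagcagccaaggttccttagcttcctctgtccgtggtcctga
Tshz2: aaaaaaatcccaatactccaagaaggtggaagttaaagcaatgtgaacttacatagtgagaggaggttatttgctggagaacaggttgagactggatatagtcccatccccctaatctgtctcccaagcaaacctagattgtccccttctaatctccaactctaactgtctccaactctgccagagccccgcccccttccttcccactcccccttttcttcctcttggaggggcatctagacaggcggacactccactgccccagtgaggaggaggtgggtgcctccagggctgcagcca
Vwc2l: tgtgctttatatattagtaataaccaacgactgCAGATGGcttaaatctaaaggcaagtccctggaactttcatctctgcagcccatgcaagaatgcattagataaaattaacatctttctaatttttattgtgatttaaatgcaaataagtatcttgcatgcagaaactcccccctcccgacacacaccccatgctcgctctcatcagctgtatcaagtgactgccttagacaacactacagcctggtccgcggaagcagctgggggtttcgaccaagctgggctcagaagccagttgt
Of these windows only that of Vwc2l held a match, 1 E-box. The base composition differed, with 53.7% G and C and 8 CG steps in Slc17a6, 52.0% and 2 in Tshz2, and 44.3% and 6 in Vwc2l. The T-box letters occurred in 4.68% of the 171 promoters listed for rising genes, 3.17% of the 63 for falling genes, 3.10% of the 8841 for genes of tested probes and 3.96% of all 27025 listed promoters. The E-box letters occurred in 4.68%, 3.17%, 3.62% and 5.38% of the same sets. These shares describe letters in a short window and say nothing of binding.

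**Figure D2:**
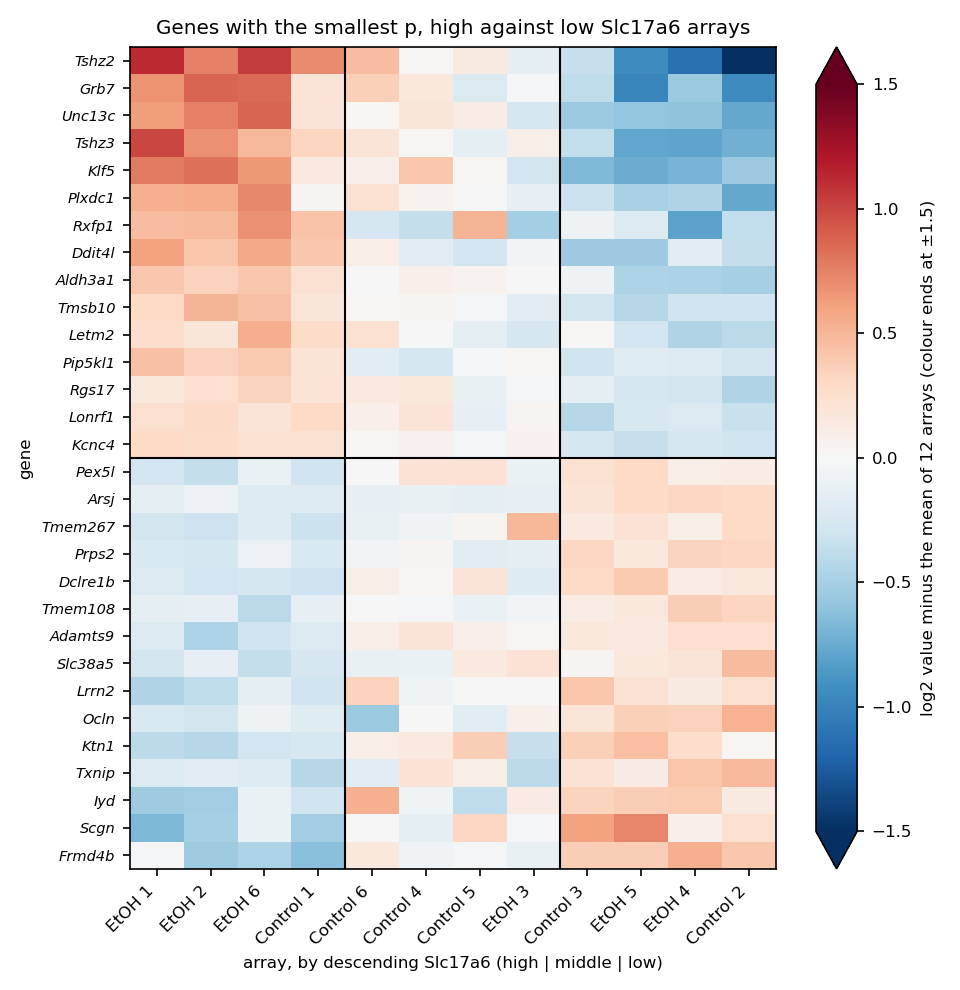
Log2 intensity minus the mean of the 12 arrays, as colour, for the 15 genes per direction with the smallest p between the sets. Arrays are in order of Slc17a6 level. For Tshz2, the levels before subtraction lie between 9.18 and 9.59 on the high arrays and between 6.78 and 8.12 on the low arrays.

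The chosen cortical markers Tbr1, Lamp5 and Cux2 rose with Slc17a6. Fezf2, Tle4, Rorb, Scnn1a, Etv1, Crym, Stard8, Sulf1 and Ccn2, of the neocortical list below, were not called by the slope. Tbr1 read 9.21 in EtOH 1, 8.92 in EtOH 2, 8.84 in EtOH 6 and 8.83 in Control 1, and 8.04 in EtOH 4, 8.41 in EtOH 5, 8.23 in Control 2 and 8.39 in Control 3. The sets did not overlap, and the difference was 0.70 (0.43 to 0.98, limma adjusted p = 0.0789). Tbr1 rose by 0.43 per unit of Slc17a6 (limma adjusted p = 0.00643), a call made in 18 of the 23 alternative slope fits, and in each of those that left out 1 array. Lamp5 read 11.51 in EtOH 1, 11.49 in EtOH 2, 11.28 in EtOH 6 and 11.29 in Control 1, and between 10.78 and 10.92 in the low set. Its difference was 0.51 (0.31 to 0.70), and it rose by 0.31 (limma adjusted p = 0.0304), a call made in 11 of 23 fits and lost without EtOH 1, EtOH 2, EtOH 4, EtOH 5, EtOH 6 or Control 3, at adjusted p from 0.0513 to 0.0855. Cux2 lay between 7.07 and 7.70 in the high set and between 6.49 and 6.92 in the low set, with a difference of 0.80 (0.40 to 1.20), and it rose by 0.50 (limma adjusted p = 0.0199), a call made in 15 of 23 fits and lost without EtOH 1 or Control 2, at 0.0639 and 0.114. On chip 1 the difference was 0.85 for Tbr1, 0.58 for Lamp5 and 0.79 for Cux2. On chip 2, where EtOH 6 stood alone against EtOH 5 and Control 3, it was 0.44, 0.37 and 0.82.

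**Figure D3:**
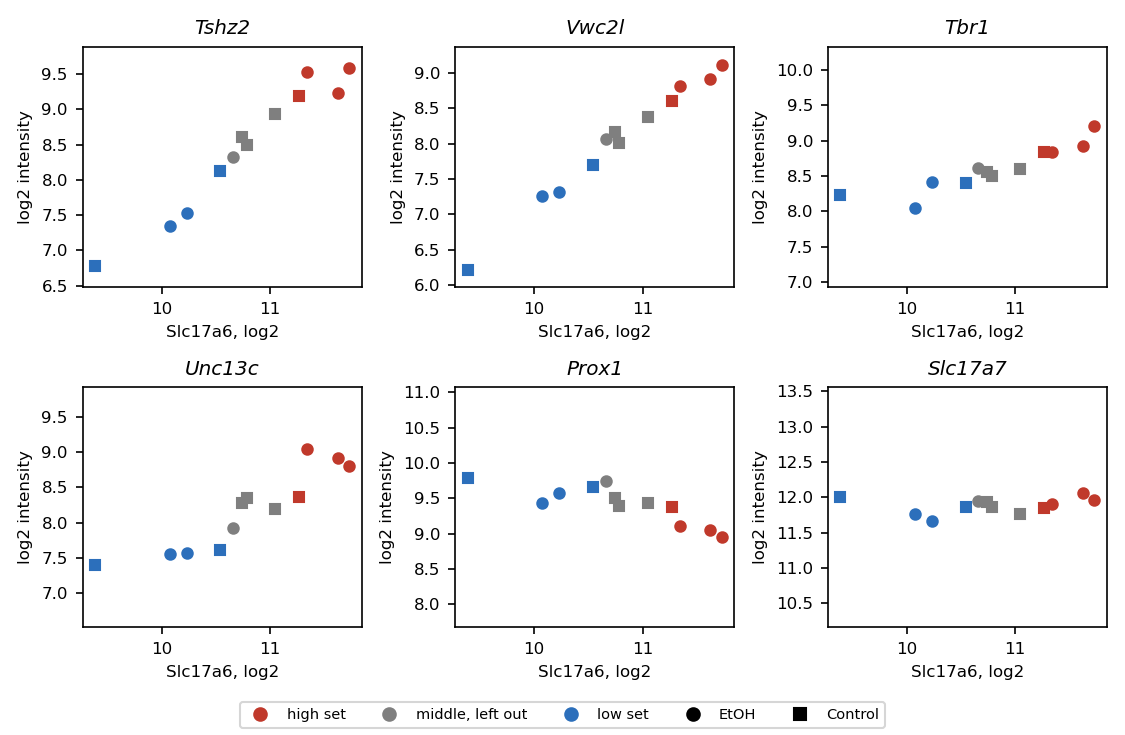
Log2 intensity of Tshz2, Vwc2l, Tbr1, Unc13c, Prox1 and Slc17a7 against Slc17a6 over the 12 arrays, each panel spanning the same number of log2 units. Tshz2 and Vwc2l climb through the middle arrays that the sets left out, Prox1 declines, and Slc17a7 stays between 11.66 and 12.06.

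Of the other vesicular transporters, Slc17a7 read 11.85 to 12.06 in the high set and 11.66 to 12.01 in the low set, with overlapping sets and a difference of 0.09 (-0.12 to 0.31). Its slope was 0.04 (limma adjusted p = 0.746). Slc17a8 read 7.00 to 7.41 in the high set and 7.41 to 7.71 in the low set, a difference of -0.38 (-0.63 to -0.13), and it fell by 0.26 per unit of Slc17a6 (limma adjusted p = 0.0371), a call made in 7 of 23 fits and kept, among those leaving out 1 array, without EtOH 2, EtOH 3 or Control 4. Among 20 glutamate transporters and receptors tested, 10 were higher and 10 lower in the high set, with a median difference of 0.00. Grm8 and Grm4, presynaptic group III metabotropic receptors, differed by 0.89 and 0.62 and rose (limma adjusted p = 0.00751 and 0.0162), the former at 0.0737 without Control 2.

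By the rule for named genes, the 15 highest places above and below were filled by the smallest p, since no probe was called. The same contrast chose these genes, so their differences are a description. After Tshz2, the higher side held Unc13c, a vesicle-priming protein of the Munc13 family. It read 8.80 in EtOH 1, 8.92 in EtOH 2, 9.04 in EtOH 6 and 8.36 in Control 1, against 7.40 to 7.61 in the low set, a difference of 1.30 (1.00 to 1.60). Other wide differences were those of Grb7, a signalling adaptor, at 1.40, Tshz3 at 1.29, Klf5, a zinc-finger transcription factor, at 1.26, and Plxdc1, a plexin-domain membrane protein, at 1.04. Kcnc4, a Kv3 potassium channel subunit, differed by 0.54 with tight sets, 11.81 to 11.89 against 11.24 to 11.34. The others were Rxfp1, the relaxin receptor, Ddit4l, Aldh3a1, an aldehyde dehydrogenase, Tmsb10, which binds actin monomers, Letm2, Pip5kl1, Rgs17, a regulator of G protein signalling, and Lonrf1, with differences from 0.55 to 0.96. Without background correction those of Rxfp1, Aldh3a1, Letm2 and Pip5kl1 were 0.34, 0.28, 0.23 and 0.20, and these dim probes did not pass the stricter detection filter. A brighter probe of Lonrf1 differed by 0.18. All 15 had limma adjusted p-values from 0.0587 to 0.0616.

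On the lower side, differences were smaller. Scgn, the calcium-binding protein secretagogin, read 5.40 in EtOH 1, 5.58 in EtOH 2, 5.98 in EtOH 6 and 5.56 in Control 1, and 6.15 in EtOH 4, 6.81 in EtOH 5, 6.31 in Control 2 and 6.68 in Control 3. Its difference was -0.74 (-0.92 to -0.55), and it fell by 0.45 per unit of Slc17a6 (limma adjusted p = 0.0182, and 0.0575 without EtOH 1 and 0.0503 without Control 2). Frmd4b differed by -0.85, Iyd, an iodotyrosine deiodinase, by -0.62, Txnip, the thioredoxin-interacting protein, by -0.59, Ktn1 by -0.57, Ocln, a tight-junction protein, by -0.55, and Lrrn2 by -0.53. Slc38a5, a glutamine transporter, differed by -0.52, Adamts9, a secreted protease, by -0.51, Tmem108 by -0.50, Dclre1b and Prps2 by -0.48, Arsj and Tmem267 by -0.45, and Pex5l, a regulator of HCN channels, by -0.39. Another detected probe of Lrrn2 and one of Pex5l pointed the other way, so the direction of these 2 genes depends on the probe. A brighter probe of Ktn1 differed by -0.13. A brighter probe of Scgn differed by -0.49, and its slope of -0.32 was not called (limma adjusted p = 0.122). Among the alternative fits the smallest differences were -0.29 for Scgn, -0.34 for Frmd4b and -0.20 for Ktn1. The dim probes of Scgn, Frmd4b and Ktn1 did not pass the stricter detection filter. The limma adjusted p-values of these 15 genes ran from 0.0587 to 0.0789.

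The 12 genes in each direction with the smallest slope p were added after their values were seen. Beside Tshz2, Vwc2l and Tshz3, the rising genes were Sowahb, which rose by 1.09, Rxfp1 by 0.78, Cdh7, a cadherin, by 0.65, Tox, a nuclear HMG-box protein, by 0.65, Amn by 0.64, Plxdc1 by 0.64, Cntn6, a contactin of neuronal adhesion, by 0.59, Rims3, an active-zone protein of the RIM family, by 0.57, and Ly6g6e by 0.57. Rims3 illustrates the group, with 11.51 in EtOH 1, 11.28 in EtOH 2, 11.10 in EtOH 6 and 10.92 in Control 1, against 10.14 to 10.50 in the low set. Its levels on the middle arrays, 10.69 to 10.94, reached the low end of the high set. The Rxfp1 slope is that of its brighter probe. The Rxfp1 probe named for the set comparison had a slope of 0.52 (limma adjusted p = 0.0917). The dim probes of Sowahb, Rxfp1 and Cdh7 did not pass the stricter detection filter. Among the alternative slope fits their smallest slopes were 0.65, 0.31 for the brighter Rxfp1 probe, and 0.26. The falling genes moved less: Slc29a4, a monoamine transporter, fell by 0.50, Upp1, a uridine phosphorylase, by 0.46, Scgn by 0.45, Lama1, a laminin chain, by 0.44, Ehd1, an endocytic recycling protein, by 0.33, Slc38a5 by 0.33, and Pkp2, a desmosomal plakophilin, by 0.30. Fadd, Nod1, Pex5l, Susd6 and Yipf1 fell by 0.21 to 0.29. Fadd was called by its dimmest probe, and its 2 brighter probes had slopes of 0.02 and -0.06 (limma adjusted p = 0.916 and 0.675). Among the falling genes, Slc29a4, Upp1, Scgn, Lama1, Slc38a5, Fadd, Nod1, Susd6 and Yipf1 were not called without Control 2. Fadd, Lama1, Upp1 and Scgn were not called without EtOH 1 either, at limma adjusted p from 0.0521 to 0.0575, nor Upp1 and Yipf1 without EtOH 4, at 0.0508 and 0.0559. None of the 12 rising genes was lost when 1 array was left out. They were chosen from these same arrays and had smaller slope p-values than the falling genes. The calls kept and lost therefore do not compare the stability of the 2 directions. Leaving out EtOH 2, EtOH 4 and Control 2, the set arrays with choroid plexus transcripts, gave the differences of chip 2. EtOH 6 is the only high array there. The difference went from -0.71 to -0.29 for Slc29a4 and from -0.62 to -0.19 for Upp1. For Fadd it went from -0.42 to -0.12 and for Nod1 from -0.36 to -0.13. With Ttr as a covariate these differences were -0.63, -0.50, -0.39 and -0.32. Lama1, Ehd1 and Yipf1 went from -0.70, -0.47 and -0.34 to -0.48, -0.29 and -0.20 on chip 2. Scgn, Slc38a5, Pkp2, Pex5l and Susd6 differed there by -0.77, -0.46, -0.42, -0.36 and -0.37. In the fit of 8 arrays they stood at -0.74, -0.52, -0.46, -0.39 and -0.36. Without EtOH 2, EtOH 4, Control 2 and Control 4 the slope called 11 rising and 0 falling probes at an adjusted p under 0.05 in limma. At an unadjusted p under 0.05 stood 1823 probes in both directions. The part of choroid plexus transcripts in these genes was not tested.

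Lists of marker genes place these transcripts among the regions and cell types of the dissection. A gene was represented by its brightest detected probe, and of 10935 genes so represented 49.8% were higher in the high set, with a median difference of -0.00. At an unadjusted p under 0.05 stood 8.49% of genes on the higher and 8.4% on the lower side. The sets did not overlap for 10.1% of genes, 5.97% above and 4.08% below, and 2.32% moved with Slc17a6, 1.77% rising and 0.549% falling.

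Of 6 genes listed for subiculum and retrosplenial cortex, 5 were detected, and all 5 were higher in the high set, with a median difference of 0.87. Tshz2 differed by 2.06, Dlk1, a Notch-related membrane protein, by 1.17, and Cntn6 by 0.87, and for these 3 the sets did not overlap. Fn1 and Nts differed by 0.52 and 0.50 with overlapping sets. Tshz2 and Cntn6 rose with Slc17a6. The mean level of the list lay between 7.52 and 7.81 on the high arrays, between 7.27 and 7.52 on the middle arrays, and between 6.37 and 7.02 on the low arrays.

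Of 26 genes of neocortical layers, 17 were detected, 13 of them higher and 4 lower, with a median difference of 0.51. For 9 of the 17 the high set lay wholly above the low set, and 8 rose with Slc17a6 at a limma adjusted p under 0.05: Tbr1, Lamp5, Cux2, Ldb2, Nr4a2, Igfbp6, Tox and Mef2c. Ccn2, a marker of the deepest cortical layer, had the widest difference, 1.33, with 9.72 to 10.51 against 8.32 to 9.37, and its slope of 0.77 was not called (limma adjusted p = 0.0853). Rorb, a layer 4 gene, differed by 0.12, with overlapping sets. The 4 lower genes were Sulf1 at -0.71 (-1.73 to 0.31), Stard8 at -0.14, Crym at -0.03 and Etv1 at -0.01, all with overlapping sets. The list mean lay between 9.26 and 9.63 on the high arrays and between 8.93 and 9.03 on the low arrays. None of the 17 was lower at an unadjusted p under 0.05. The median was 0.56 on chip 1, 0.37 on chip 2, with its single high array, and 0.47 with Ttr as a covariate.

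**Figure D4:**
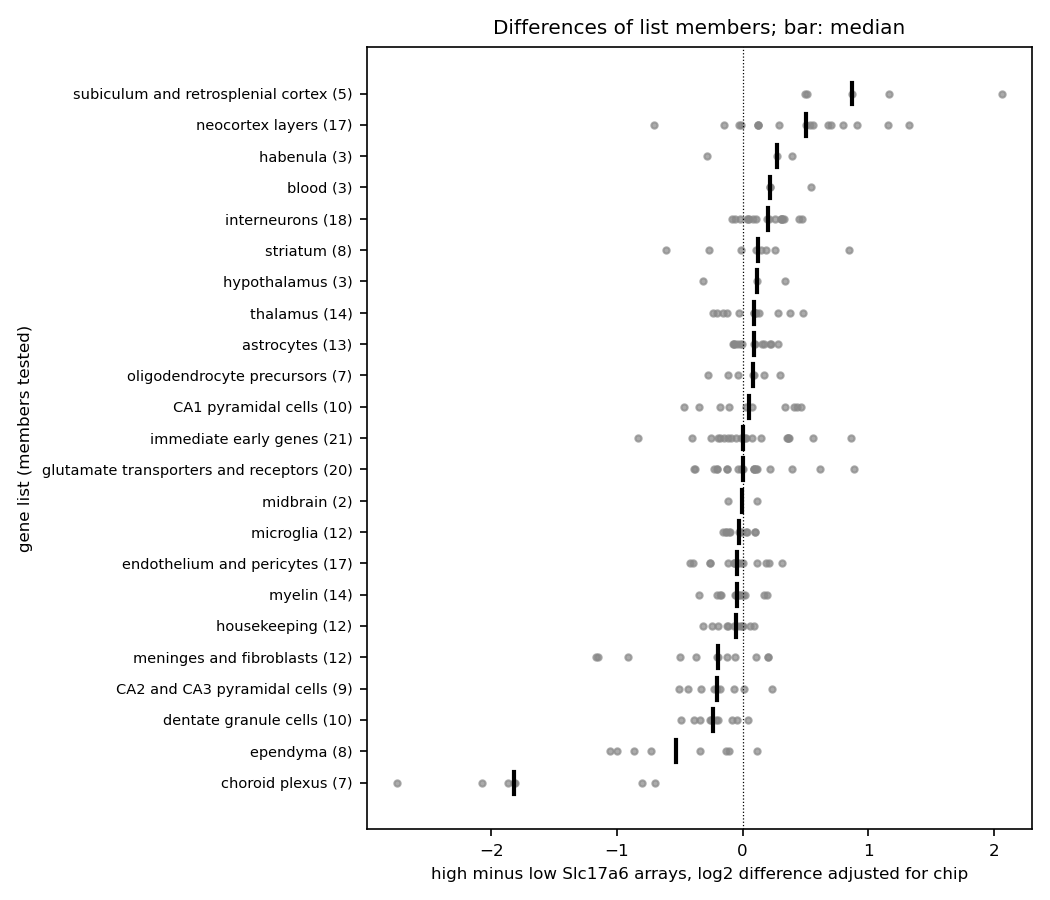
Differences between the high and low sets, in log2 units, for each detected member of 23 marker lists, with a bar at the list's median. Subiculum and retrosplenial cortex lie farthest to the right at 0.87, neocortex layers next at 0.51, and choroid plexus farthest to the left at -1.82.

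Lists for thalamus, habenula, hypothalamus, midbrain and striatum had smaller median differences than the cortical lists, and many of their genes were not detected. Of 20 thalamic genes 14 were detected, 9 higher and 5 lower, with a median difference of 0.10. Ntng1, a netrin-G of thalamic axons, differed by 0.48 and rose by 0.34 (limma adjusted p = 0.0161). Rgs16 and Rora differed by 0.38 and 0.28. Tcf7l2, the transcription factor that defines thalamic neurons, read 7.28 to 7.60 in the high set and 7.04 to 7.49 in the low set, a difference of 0.09. The thalamic genes Lef1, Gbx2, Plekhg1, Slitrk6, Nexn and Synpo2 did not pass the detection filter. Zic1 and Zic4 stood apart in the high set, at up to 8.64 and 6.78 on EtOH 2. That array had the highest list mean, 8.24. The other high arrays had list means from 7.79 to 7.88, beside 7.83 to 7.87 on the low arrays. EtOH 2 is also the high array with choroid plexus transcripts. Zic1 was next highest on the other arrays with these transcripts, at 7.78 in Control 2, 7.67 in EtOH 4 and 7.65 in Control 4. Zic4 was next highest in Control 4 and Control 2, but not in EtOH 4. The list mean was 8.02 on Control 4, but 7.85 on EtOH 4 and 7.87 on Control 2. Whether the EtOH 2 values reflect thalamic tissue was not tested. Of 10 habenular genes 3 were detected, Nwd2, Tac2 and Gpr151, with differences of 0.28, 0.39 and -0.29, and the defining factor Pou4f1 did not pass the filter. Of 12 hypothalamic genes 3 and of 11 midbrain genes 2 were detected, and Pmch, Hcrt, Avp, Th and Slc6a3 did not pass the filter. Among 8 striatal genes 5 were higher and 3 lower, with a median of 0.13; Drd1, the D1 dopamine receptor, differed by 0.85 and rose (limma adjusted p = 0.00805, and 0.0751 without Control 2), while Ppp1r1b and Penk differed by -0.61 and -0.27.

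Genes of the dentate gyrus, CA2 and CA3 had mostly lower values in the high set. Of 16 dentate granule cell genes 10 were detected, 9 of them lower in the high set, with a median difference of -0.23. Their list mean overlapped between the sets, at 8.09 to 8.42 on the high arrays and 8.39 to 8.54 on the low arrays. It was lowest on the middle array Control 4, at 8.06. Prox1, the transcription factor that defines dentate granule cells, read 8.95 in EtOH 1, 9.05 in EtOH 2, 9.11 in EtOH 6 and 9.37 in Control 1, and 9.43 in EtOH 4, 9.57 in EtOH 5, 9.79 in Control 2 and 9.66 in Control 3. The sets did not overlap, although Control 1 lay close to EtOH 4. The difference was -0.49 (-0.76 to -0.22), and Prox1 fell by 0.33 per unit of Slc17a6 (limma adjusted p = 0.0329), a call made in 10 of 23 fits and lost without EtOH 1, EtOH 2, EtOH 5, EtOH 6, Control 2 or Control 3, at adjusted p from 0.0515 to 0.144. A second, dimmer probe of Prox1 differed by -0.24 and had a slope of -0.17 (limma adjusted p = 0.279). Lct and Dock10 differed by -0.38 and -0.25, and 3 of the 10 stood at an unadjusted p under 0.05 on the lower side, none on the higher. Of 12 genes of CA2 and CA3 pyramidal cells 9 were detected, 7 of them lower, with a median of -0.21. Rgs14, a CA2 gene, differed by -0.44 without overlap, and Bok and Iyd, by their brightest probes, by -0.33 and -0.51, but none of the 9 fell at an adjusted p under 0.05. Of 10 CA1 genes 6 were higher and 4 lower, with a median of 0.05. They split by gene: Ccn3, Mpped1, Wfs1 and Tyro3 differed by 0.34 to 0.47, and Lefty1 and Spink8 by -0.46 and -0.35, with Mpped1 and Tyro3 rising (limma adjusted p = 0.0235 and 0.0452).

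**Figure D5:**
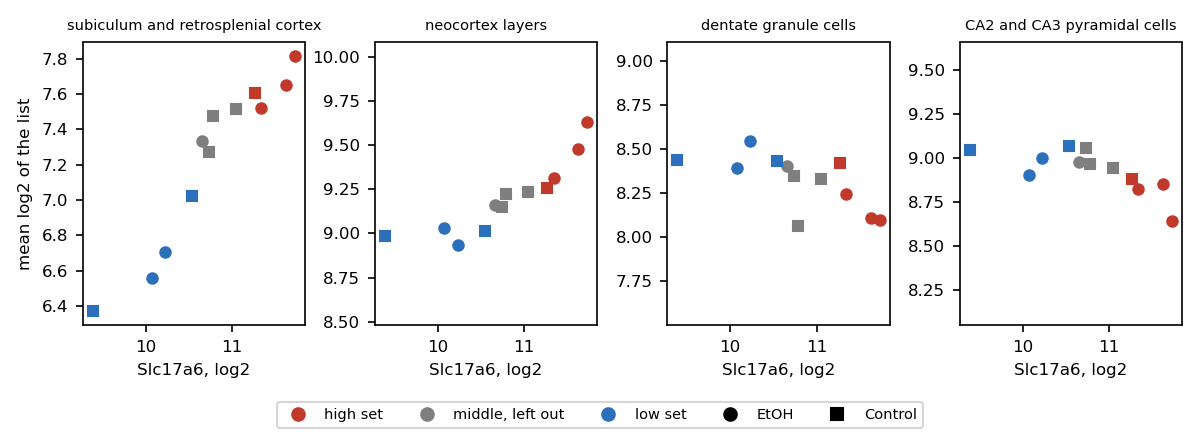
Mean log2 level of the detected members of 4 marker lists against Slc17a6 over 12 arrays, coloured by set and shaped by exposure group, each panel with its own axis. The subiculum and retrosplenial mean runs from 6.37 on Control 2 to 7.81 on EtOH 1, the neocortex mean is highest on the high arrays, and the CA2 and CA3 mean is lowest there. The dentate mean overlaps between the sets and is lowest on the middle array Control 4, at 8.06.

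Of 18 interneuron genes 15 were higher and 3 lower, with a median difference of 0.20. Dlx1, a homeobox factor of these cells, differed by 0.45, the peptide Vip by 0.47 and the calcium buffer Pvalb by 0.26, and these 3 rose (limma adjusted p = 0.0113, 0.0225 and 0.0334). Gad1 and Gad2, which make GABA in every interneuron, differed by 0.04 and 0.11, and Sst and Npy by 0.04 and -0.08, all with overlapping sets. The 21 immediate early genes had a median of 0.01, with Npas4 at 0.86 and Sgk1 at -0.83, and only Nr4a2, counted with neocortex as well, rose.

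Glia and vessels showed small differences. The medians were -0.05 over 14 myelin genes, 0.08 over 7 oligodendrocyte precursor genes, 0.09 over 13 astrocyte genes, -0.03 over 12 microglial genes and -0.05 over 17 endothelial and pericyte genes. No member of these 5 lists rose or fell with Slc17a6 at an adjusted p under 0.05 in limma. The members with the smallest p were Mal at -0.35, Cacng4 at 0.30, Fgfr3 at 0.28, Csf1r at -0.13 and Slc2a1 at -0.42. Another detected probe of Mal differed by 0.15 and one of Csf1r by 0.13, so their direction depends on the probe. The 3 blood genes had a median of 0.22, with Alas2 at 0.55, and 12 housekeeping genes one of -0.06, with B2m at -0.31.

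Markers of the ventricles and brain surface had mostly lower values in the high set. All 7 detected choroid plexus genes of 19 were lower, with a median of -1.82, but the sets overlapped for every one of them. Their list mean was 10.21 on EtOH 2 and at most 7.28 on the other high arrays. The median was -2.86 on chip 1 and -0.09 on chip 2, where no set array had the high Ttr level. Of 8 ependymal genes 7 were lower, with a median of -0.53, and of 12 meningeal and fibroblast genes 9 were lower, with a median of -0.20. The ependymal median was -0.76 on chip 1 and -0.08 on chip 2, and the meningeal one -0.36 and 0.10, with 0.08 in the EtOH arrays alone. No gene of these 3 lists fell at an adjusted p under 0.05. Without EtOH 2, EtOH 4 and Control 2 the differences equal those of chip 2, EtOH 6 alone against EtOH 5 and Control 3. Chip 1 then holds no low array, so with the chip as a term only EtOH 6 stands for the high set. The medians were 0.56 for subiculum and retrosplenial cortex, 0.37 for neocortex, -0.24 for dentate granule cells and -0.31 for CA2 and CA3. The part of choroid plexus transcripts in the other differences was not tested further.

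The 4 middle arrays stood between the sets by the same Slc17a6 probe, so they are no independent check of the differences. Within them, where Slc17a6 levels spanned 10.66 to 11.05, the slope had the sign of the set difference for 50.2% of all probes. It had that sign for 116 of the 182 probes that were higher and for 29 of the 69 that were lower at an adjusted p under 0.1 (limma). That narrow span gives the slope within the middle arrays little weight.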

How the data were processed

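Single-colour Illumina bead arrays of 12 hippocampus RNAs were used, with a non-normalized table of probe intensity and detection p-value as deposited by the authors, and per the submitters' processing notes GenomeStudio 1.9.0 was used. Another deposited table holds normalized signal intensity; each of its columns had a rank correlation of 1.00 with the same array, and its centring and scaling are otherwise not given in the sources used here. The deposited intensities were background-corrected from the detection p-values and quantile-normalized with neqc (offset 16) in limma 3.58.1 under R 4.3.3, giving log2 values. Probes with a detection p under 0.05 on at least 6 arrays were kept, and both probes of Slc17a6 were then left out, which leaves 20170.

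High and low sets of 4 arrays were compared with lmFit and eBayes, the chip as a fixed term, two-sided, with Benjamini-Hochberg adjustment over all tested probes. Intervals are at 95% and cover the spread between arrays only, and with few arrays precision is low. The fit was tested on simulated data. The arrays, the markers and all gene lists were chosen with earlier results of these data known. Named genes are Slc17a6, Tbr1, Lamp5, Cux2, Slc17a7 and Slc17a8; 15 genes per direction, first those called without overlap of the sets and then those of smallest p; and the leading members of each list. The 12 genes per direction with the smallest slope p, further list members and the slope's own alternatives were added after seeing the data. Gene names are those of GEO's platform annotation: 34885 probes name 1 gene, 18 several and 10378 none, and of 17115 tested probes with 1 name 17091 matched RefSeq by gene identifier. Promoters come from RefSeq tables of GRCm38.p6. Alternatives covered background correction, normalization, the deposited values, the detection filter, the chip, the exposure group, the variance model, choroid plexus transcripts, the Slc17a6 probe and single arrays.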

Additional observations from a re-analysis of the deposited data

Results flagged for a closer look

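In a set of 4 arrays, an array was singled out where its gap to the nearest array took up most of the set's range by Dixon's criterion. Of 196 sets of values examined, 10 were singled out, and chance alone gives about 9.8, or 1 in 20. The widest gap in log2 units was that of the choroid plexus list mean in the high set, 10.21 on EtOH 2, with the next array at 7.28. As a share of the range, the largest gap was that of the astrocyte list mean in the low set, at 0.93. In the high set Tmem108 was lowest on EtOH 6 at 9.04, with the next at 9.30. In the low set, Aldh3a1 was highest on Control 3 at 5.81 (next 5.42), and Arsj was lowest there at 8.09 (next 8.18). EtOH 4 was lowest in the low set for Lamp5 at 10.78 (next 10.90), Susd6 at 9.66 (next 9.85) and the astrocyte list mean at 10.86 (next 10.96). EtOH 5 was lowest there for Prps2 at 7.89 (next 8.04) and for the striatal list mean at 7.96 (next 8.06), and highest for the housekeeping list mean at 11.63 (next 11.61).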

How the results depend on the processing

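With 4 arrays a set, the 95% interval extended about 0.23 log2 units to either side at the median probe, which matches an unadjusted p of 0.05. The number called at an adjusted p under 0.05 (limma) depended on the setting, and the cause was not tested. Against 0 in the fit of 8 arrays, probes called higher and lower in the high set numbered 207 and 86 with normexp at an offset of 50, 300 and 184 without background correction, 105 and 62 with median scaling, 300 and 188 on the deposited values, 97 and 36 with detection under 0.01 on all arrays, 13 and 0 without the chip term, 19 and 2 with the chip as a random block, 19 and 0 in EtOH arrays alone, 209 and 82 with 12 arrays in 3 sets, 300 and 95 for the slope and 385 and 240 with a trended, robust variance. Leaving out each array gave 0 to 45 higher and 0 to 2 lower, the most without Control 1. No probe was called without the detection filter, on either chip alone, with the exposure group or Ttr as a term, without the 3 arrays with choroid plexus transcripts, or with sets by the second probe. At an unadjusted p under 0.05, 1782 higher and 1550 lower became 1151 and 973 with median scaling, 1078 and 714 in EtOH arrays alone, 753 and 854 without the 3 choroid plexus arrays, and 1046 higher on chip 2 alone and 2391 lower without the filter; leaving out single arrays gave 1397 to 1826 and 1128 to 1611. Median scaling moved the median difference of all probes from 0.01 to 0.02. The slope over 12 arrays called 300 rising and 95 falling probes, 472 and 252 on the deposited values, 174 falling with Ttr as a covariate, 220 and 40 without the chip term, 189 and 37 with the exposure group, 15 and 0 in EtOH arrays alone, 4 and 1 in Control arrays alone, 7 and 0 on chip 1, 4 and 0 on chip 2, 107 and 31 without the 2 farthest arrays and 11 and 0 without the 4 choroid plexus arrays; leaving out single arrays gave 89 to 300 and 11 to 105. Of 1935 values of 75 named probes under the alternatives, 1931 kept their sign. Tph2, at -0.12, was 0.0766 on chip 1 alone and -0.224 to 0.0766 with single arrays left out, the latter without EtOH 6, and Csf1r, at -0.13, was 0.0260 on chip 2 alone and without the 3 choroid plexus arrays. List medians for neocortex ranged from 0.21 to 0.56, for subiculum and retrosplenial cortex from 0.52 to 1.08, and for dentate granule cells from -0.33 to -0.12. No paired analysis was possible because the high and low sets share fewer than 2 replicate numbers.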
